A study of Mus musculus with 14 samples.

Results

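The genes of fatty acid oxidation and ketogenesis in the liver are described here as a set of 37, read from the deposited count table by gene name: the receptor *Ppara* and its partner *Rxra*, the genes of mitochondrial and peroxisomal beta oxidation with uptake, activation and the carnitine shuttle, acyl-CoA thioesterases, *Bdh1* of the ketone bodies and the pantetheinase *Vnn1*. All 37 were among the 55487 genes of the table, each had reads in every mouse, and all 37 passed the filter on low counts that left 12653 genes for testing. The samples were right liver lobes of 14 TALLYHO mice, an inbred strain that develops obesity and type 2 diabetes from many loci. The mice were males of 8 to 12 weeks, and none carried an added transgene or deletion. There were 7 vehicle mice, given water, and 7 indole mice, given 20 mg/kg of indole, a product of bacterial tryptophan breakdown in the gut. Both groups were gavaged 2 times a day for 7 days, with further doses around the metabolic tests, and were culled the day after the last test. Values are given as mean±SD (n=7). Each library was 1 mouse, so the spread between libraries holds both animal and technical variation. The comparison asks whether repeated oral indole was accompanied by a shift in the oxidation programme of the diabetic liver.

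In hepatocytes, fatty acids are taken up and bound, activated to acyl-CoA, and passed into mitochondria by the carnitine shuttle, whose entry enzyme CPT1 is the usual control point. Mitochondrial beta oxidation then shortens the chain by repeated rounds of dehydrogenation, hydration, a further dehydrogenation and thiolysis. Electrons leave through ETF and ETF dehydrogenase, and much of the acetyl-CoA formed in fasting becomes ketone bodies. Peroxisomes begin the shortening of very long and branched chains with a separate set of enzymes. PPARα, a nuclear receptor for fatty acids that binds DNA as a dimer with RXRα, switches on many genes of both routes in fasting.

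The libraries held 15197498 to 21060376 counts. Hepatocyte markers dominated every library (84160 to 119900 CPM, counts scaled to a library of 1000000, summed over 11 markers). Markers of T and NK, B, adipose and acinar cells summed to less than 20 CPM each in every mouse, and 1 of 12, 3 of 8, 1 of 8 and 1 of 8 of them passed the filter on low counts. Nearly all adipose reads were of *Fabp4* and nearly all acinar reads of *Cela1*, with 3 adipose (*Lep*, *Ucp1*, *Retn*) and 4 acinar genes (*Cel*, *Cela2a*, *Cpb1*, *Try4*) at 0 throughout. The 5 tested erythroid markers were all higher with indole at an unadjusted p below 0.05, with summed levels of 204 to 384 CPM in vehicle and 263 to 1094 CPM in indole mice, highest in G5 and G14. The 16 Kupffer cell and macrophage markers summed to 161 to 416 CPM in vehicle mice and to 186 to 295 CPM in 6 indole mice, against 816 CPM in indole mouse G8, whose interferon response genes were also the highest (4925 CPM against 1612 to 2596 CPM elsewhere). With G8 included, 15 of these 16 markers were higher with indole (median log2 fold change 0.23), none at an unadjusted p below 0.05. The 10 endothelial markers were all higher with indole (median log2 fold change 0.19) and the 6 tested bile duct markers all lower (-0.25). Of these, 2 endothelial markers and 1 bile duct marker had an unadjusted p below 0.05. So did 1 of 11 tested hepatocyte, 1 of 3 B and 1 of 1 acinar markers, all higher with indole. In stellate cells 1 of 10 markers passed, lower with indole. Over all genes tested 3.81% passed this threshold in either direction. Mice G1 to G4, 2 of each group, had scaling factors of 1.07 to 1.08, against 0.93 to 1.004 in the other 10. In bulk liver, fewer cells of a type and less RNA per cell cannot be told apart. The part of these features in the values below was not tested, except where a value without G8 is given.

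Few genes of the oxidation programme differed between indole and vehicle liver, and none after adjustment. Of the 37 genes, 25 had a higher and 12 a lower fitted mean with indole (67.6% higher, against 51.3% of all genes tested), and the median log2 fold change was 0.027, beside 0.004 for all genes tested. At an unadjusted p below 0.05 there were 2 genes, or 5.41% of the set, where 3.81% of all genes tested passed. *Acaa1b*, a peroxisomal thiolase, was the 1 higher gene (background 1.53%), and *Cpt1a*, the liver form of the carnitine shuttle's entry enzyme, the 1 lower gene (background 2.28%). With p-values adjusted over all genes tested by the Benjamini-Hochberg method, edgeR's quasi-likelihood test called 0 of the 37, as it called 0% of all genes, and the adjusted p was 0.998 for each of the 37. DESeq2 and limma-voom also called 0 of the 37 after adjustment, and 2 and 3 of them at an unadjusted p below 0.05. At that unadjusted threshold DESeq2 passed 3.19% of the 22535 genes it tested, and limma-voom 551 of 12653. No gene of the set had groups that did not overlap between the mice (background 0.0474%). Both shares of called genes stand near those of the whole table.

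The size of what could have been missed differed by gene. For 19 of the 37 the whole 95% interval of the fold change lay within 0.25 on the log2 scale in either direction, which is a 1.19-fold change; this was the case for 23.7% of all genes tested. The biological coefficient of variation, edgeR's measure of the spread between mice beyond counting error, had a median of 0.127 in the set and 0.166 over all genes, and 28 of the 37 lay below the latter. Among the 1059 genes with levels between the lower and upper quartile of the set the median was 0.134, so the set's low spread was close to that of other genes as abundant. Intervals were widest for *Vnn1*, *Acot3* and *Acot1*.

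**Figure D1:**
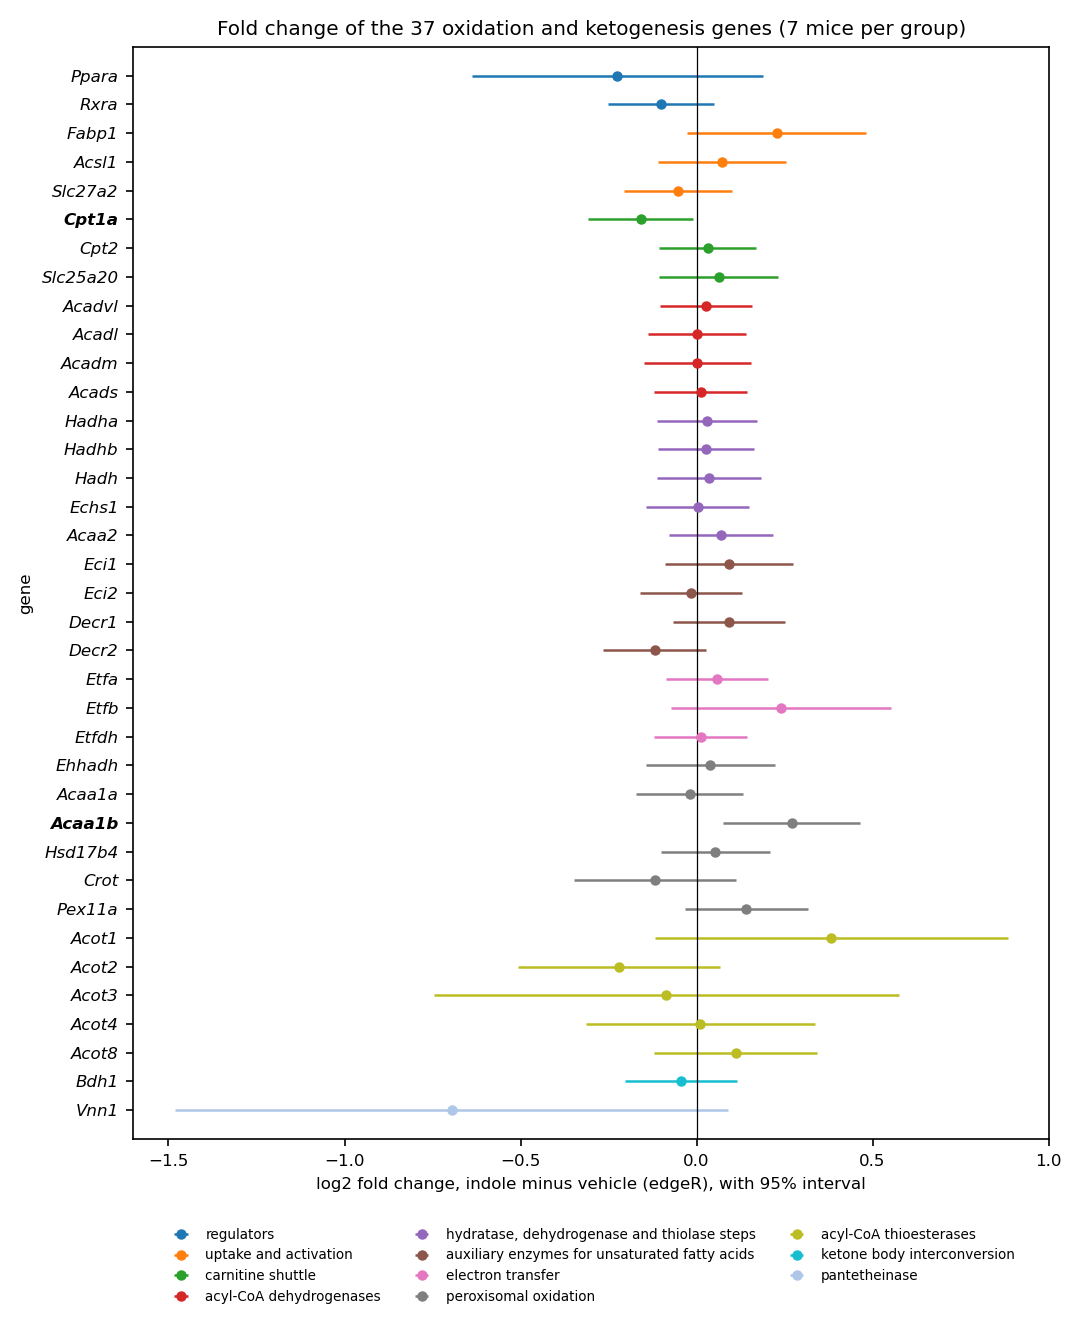
Log2 fold change (indole minus vehicle) of the 37 genes with its 95% interval, 7 mice per group, coloured by role; names in bold have an unadjusted p below 0.05. The intervals of *Cpt1a* (below 0) and *Acaa1b* (above 0) leave out 0, most mitochondrial genes lie within a narrow band around 0, and *Vnn1*, *Acot3* and *Acot1* have the widest intervals.

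Per kilobase of gene, the set spanned more than 3 orders of magnitude in vehicle liver. *Fabp1*, the cytosolic fatty acid binding protein, had 2917±530 CPM per kilobase. The mitochondrial thiolase *Acaa2* followed with 624±53.0, then *Acaa1b* with 244±28.0 and the very long chain acyl-CoA synthetase *Slc27a2* with 206±14.1, so *Fabp1* and *Acaa2* stood well above the rest. *Ppara* itself had 19.6±3.78, *Acot2* 3.06±0.361 and *Acot1* 2.36±0.706, and *Vnn1* was lowest at 0.423±0.188. Many neighbours in between, such as *Acadm* (88.6±6.81), *Acadl* (85.9±5.56) and *Acads* (81.6±4.40), differed by less than their SD or little more. These levels used the gene length deposited with the counts. With the length of the principal transcript instead, 27 of the 37 moved by more than 1 SD, and *Cpt1a* (48.8 to 86.5) passed *Cpt2* (57.2 to 57.7), while *Acaa1b* and *Slc27a2* came closer, at 284 and 264, so the order after the first 2 genes rests on the length used.

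**Figure D2:**
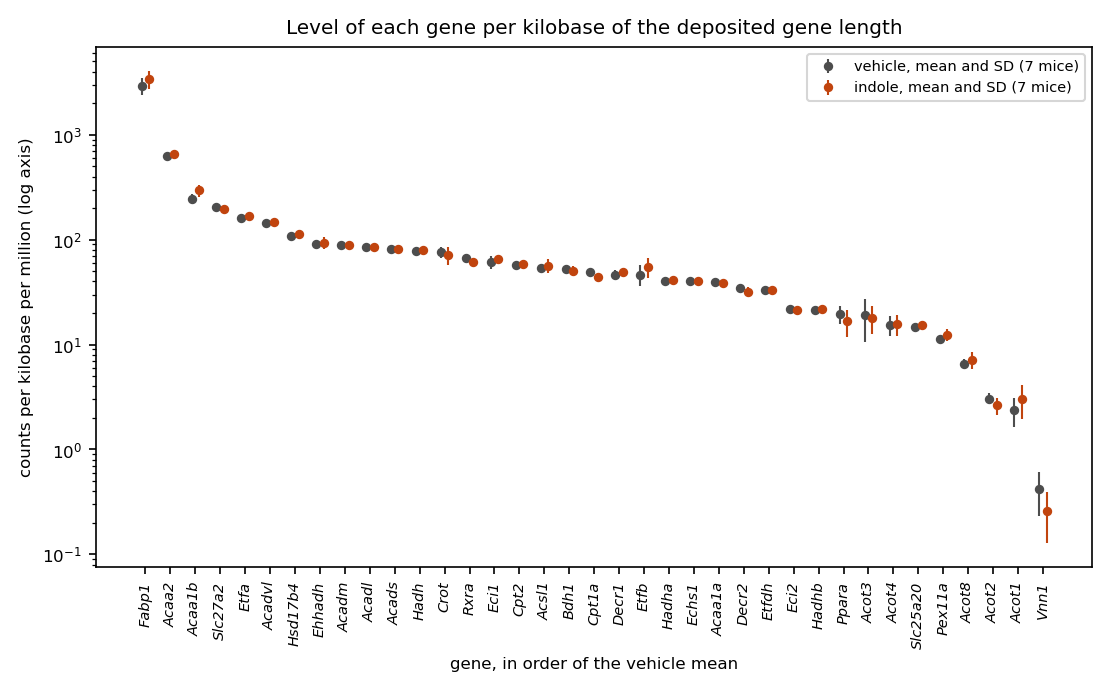
Mean and SD (7 mice per group) of CPM per kilobase of deposited gene length, on a log axis, for the 37 genes in the order of the vehicle mean. *Fabp1* leads at 2917 in vehicle mice and *Vnn1* is lowest at 0.423, and vehicle and indole points lie close together for nearly every gene.

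Both regulators had lower means with indole, and neither passed the test. *Ppara* ranged from 50.2 to 94.6 CPM in vehicle mice (median 77.7) and from 31.9 to 82.1 CPM in indole mice (median 65.5). The low end belonged to G5, whose 31.9 CPM was well below the next indole value of 55.0 CPM, and the groups overlapped over most of their range. Its means were 75.01±14.5 and 64.2±18.4 CPM, a log2 fold change of -0.22 (SE 0.19, unadjusted p = 0.262), with an interval of 0.643-fold to 1.14-fold. *Rxra*, the dimer partner and the more abundant of the pair, ran from 377 to 477 CPM in vehicle (median 402) and from 363 to 432 CPM in indole mice (median 395). Its means of 418±37.5 and 390±25.8 CPM gave a log2 fold change of -0.10 (SE 0.072, unadjusted p = 0.177). Across mice no relation between the 2 genes was found (Pearson's r = 0.0895, permutation p = 0.758, n = 14).

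Of the 3 genes of uptake and activation, *Fabp1* had the largest difference. It ran from 1360 to 2057 CPM in vehicle mice (median 1432) and from 1638 to 2707 CPM in indole mice (median 1732). All 7 indole mice lay above the vehicle median, yet only G2, at 2707 CPM, lay above every vehicle mouse. The means were 1613±293 and 1888±371 CPM, with a log2 fold change of 0.23 (SE 0.12, unadjusted p = 0.077). Without G2 it was 0.12 (unadjusted p = 0.240), whereas limma-voom with sample weights, which gives less weight to variable libraries, put p at 0.0492. Over all omissions of 1 mouse the log2 fold change of *Fabp1* ran from 0.12 to 0.30, with unadjusted p from 0.0228 to 0.240. The unadjusted p was below 0.05 in 3 of 26 other analyses. *Acsl1*, which activates long chain fatty acids, had 564±38.7 and 594±86.0 CPM (log2 fold change 0.07), and 3 indole mice lay above and 1 below all vehicle mice. *Slc27a2* had 772±52.8 and 744±65.8 CPM (log2 fold change -0.05).

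RefSeq promoters on GRCm38.p6, which run from 250 bases before to 50 after a start, were given for 33 of the 37 genes, as 37 promoters; *Decr1*, *Acaa2*, *Hsd17b4* and *Vnn1* had none. They were searched on both strands for the hexamer AGGTCA that nuclear receptors recognise and for its direct repeat with 1 base between the copies (DR1), the form PPARα and RXRα bind as a pair. The hexamer was in 10 of the 37 promoters (27.0%), of *Rxra*, *Slc27a2*, *Fabp1*, *Cpt1a*, *Acadm*, *Acadvl*, *Echs1*, *Acot3* and *Acot4*, against 16.3% of all 32851 promoters. The exact repeat was in 0 of the 37 and in 0.0396% of all. A looser repeat of AGGNCA, whose matches include those of the exact one, was in 1, that of *Fabp1*, and in 0.381% of all. This window only covers the proximal promoter, and a match or its lack says nothing here of binding. The *Fabp1* stretch is shown as the only one with a repeat and as the gene with the highest level (chr6:71199759-71199826, plus strand), with the looser repeat, read on the reverse strand at 67 to 55 bases before the start, in capitals. The *Cpt1a* stretch is shown beside it because *Cpt1a* is the lower of the 2 genes that passed the unadjusted threshold (chr19:3323181-3323250, plus strand), with its single hexamer, also on the reverse strand at 94 to 89 bases before the start, in capitals.
Fabp1: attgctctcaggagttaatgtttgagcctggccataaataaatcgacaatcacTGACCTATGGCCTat
Cpt1a: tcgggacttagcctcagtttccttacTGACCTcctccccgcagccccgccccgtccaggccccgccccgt

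The carnitine shuttle held the lower gene. *Cpt1a* (ENSMUSG00000024900, chr19:3322334-3385733 of GRCm38, plus strand) ran from 352 to 406 CPM in vehicle mice (median 369) and from 300.2 to 387 CPM in indole mice (median 328). In 5 of the 7 indole mice it was below every vehicle mouse, and the other two, G12 with 387 and G14 with 373 CPM, lay inside the vehicle range. Its means were 373±19.5 and 334±33.1 CPM, a log2 fold change of -0.16 (SE 0.072, unadjusted p = 0.0384) or 0.896-fold, with an interval of 0.808 to 0.994. The exact permutation test over all 3432 relabellings of the mice gave a two-sided p of 0.0210. Its p stayed below 0.05 in 17 of 26 other analyses, but in only 6 of the 14 that left out 1 mouse; without G1, G2, G3, G5, G6, G7, G8 or G11 it rose above 0.05, to at most 0.0828, and without both G8 and G11 it was 0.100. The log2 fold change lay between -0.19 and -0.14 in all 26. Downstream of it, *Cpt2* of the inner membrane, the most abundant of the 3 per kilobase of deposited length, had 124 to 147 CPM in vehicle (median 142) and 123 to 147 CPM in indole mice (median 145). Its means of 137±8.53 and 140±9.68 CPM gave a log2 fold change of 0.03 (SE 0.066, unadjusted p = 0.634). The carrier *Slc25a20* had 71.0±7.04 and 74.1±8.06 CPM (log2 fold change 0.06). Whether the difference in *Cpt1a* was itself different from that in *Cpt2* or *Slc25a20* was not tested.

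The mitochondrial cycle was the flattest block. The 4 acyl-CoA dehydrogenases, which take the first step on very long (*Acadvl*), long (*Acadl*), medium (*Acadm*) and short chains (*Acads*), had log2 fold changes from 0.0005 to 0.027, and their 95% intervals together ran from 0.901-fold to 1.12-fold. *Acadvl*, the most abundant, had 369 to 409 CPM in vehicle (median 392) and 368 to 438 CPM in indole mice (median 397). Its means were 388±15.5 and 396±23.2 CPM (log2 fold change 0.03, SE 0.063, unadjusted p = 0.665), and the coefficient of variation of 3.98% in vehicle mice was the lowest in the set. For the 5 genes of hydration, the second dehydrogenation and thiolysis (*Hadha*, *Hadhb*, *Hadh*, *Echs1*, *Acaa2*) the range was 0.004 to 0.069, with intervals from 0.906-fold to 1.16-fold. *Acaa2*, the matrix thiolase, ran from 867 to 1071 CPM in vehicle (median 913) and from 939 to 1086 CPM in indole mice (median 981), with all 7 indole mice above the vehicle median. Its means of 946±80.4 and 993±54.0 CPM gave a log2 fold change of 0.07 (SE 0.071, unadjusted p = 0.342). All 9 of these genes, and the 3 of electron transfer, had point estimates above 0, but with library totals and no scaling *Acadl*, *Acadm*, *Acads*, *Echs1* and *Etfdh* turned to between -0.028 and -0.014, so their direction was not settled.

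*Hadha* and *Hadhb* encode the α and β subunits of the trifunctional protein, which carries out the last 3 steps on long chains. They lie head to head on chromosome 5, and 85 bases separate their annotated starts (chr5:30155163-30155247, shown on the plus strand, *Hadha* reading leftwards and *Hadhb* rightwards). This stretch, 69.4% G and C, is printed because both genes start at its ends.
Hadha-Hadhb: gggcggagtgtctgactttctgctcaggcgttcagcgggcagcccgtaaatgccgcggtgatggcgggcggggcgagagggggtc
*Hadha* had 354±19.9 and 362±28.6 CPM and *Hadhb* 142±7.28 and 144±11.5 CPM, with log2 fold changes of 0.03 each. Their log2 CPM rose and fell together over the 14 mice, with r = 0.794 (permutation p = 0.00077, 0.0077 adjusted over 20 pairs) and Spearman's rho = 0.741 (p = 0.0037, adjusted 0.0247). Without the 2 mice farthest from the median of *Hadha* r was 0.679 and the adjusted p 0.15, so the strength of the relation rests partly on those mice.

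Of the auxiliary enzymes for unsaturated chains, the mitochondrial *Eci1* and *Decr1* had higher means and *Eci2* and the peroxisomal *Decr2* lower ones. *Eci1*, an enoyl-CoA isomerase and the most abundant of the 4, had 109 to 157 CPM in vehicle (median 123) and 123 to 167 CPM in indole mice (median 135). Its means of 130±17.7 and 139±14.1 CPM differed by a log2 fold change of 0.09 (SE 0.087, unadjusted p = 0.303). *Decr1* had 181±19.8 and 192±13.3 CPM (0.09) and *Eci2* 120±9.60 and 118±8.94 CPM (-0.02). *Decr2* had 91.9±4.30 and 84.6±8.91 CPM (log2 fold change -0.12, unadjusted p = 0.103), with 5 indole mice below every vehicle mouse and G8 above every one at 102.1 CPM. Without G8 the log2 fold change of *Decr2* was -0.17, with unadjusted p = 0.0165. Over all omissions of 1 mouse it ran from -0.17 to -0.086, with unadjusted p from 0.0165 to 0.222. The unadjusted p was below 0.05 in 4 of 26 other analyses.

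Electron transfer showed no called gene. *Etfa*, the α subunit of the electron transfer flavoprotein, had 257 to 328 CPM in vehicle (median 289) and 287 to 343 CPM in indole mice (median 303), with means of 295±25.1 and 307±18.5 CPM (log2 fold change 0.06, SE 0.070, unadjusted p = 0.421). The β subunit *Etfb* was lower and more variable, at 41.0 to 72.6 CPM (median 51.4) and 54.4 to 92.7 CPM (median 57.6). All 7 indole mice lay above the vehicle median of *Etfb*, with means of 54.1±12.2 and 63.9±14.2 CPM (log2 fold change 0.24, unadjusted p = 0.125). Without vehicle mouse G6 it was 0.33 with unadjusted p = 0.0366. Over all omissions of 1 mouse it ran from 0.13 to 0.33, with unadjusted p from 0.0366 to 0.333. The unadjusted p was below 0.05 in only 1 of 26 other analyses. *Etfdh*, which hands the electrons to ubiquinone, had 247±12.5 and 249±14.7 CPM. The subunits *Etfa* and *Etfb* had the tightest relation of the 20 pairs (r = 0.891, permutation p = 3e-05, adjusted 0.0006; rho = 0.824, adjusted 0.0112; without the 2 farthest mice r = 0.790, adjusted 0.0386). Neither followed *Etfdh* in the same way (r = 0.100 and 0.0823).

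The peroxisomal route held the higher gene. *Acaa1b* (ENSMUSG00000010651, chr9:119148023-119157093 of GRCm38, minus strand), 1 of 2 peroxisomal 3-ketoacyl-CoA thiolase genes in the set and the most abundant of the 6 genes, had 485, 556, 504, 517, 463, 386 and 446 CPM in vehicle mice G1, G4, G6, G9, G10, G11 and G13. In indole mice G2, G3, G5, G7, G8, G12 and G14 it had 629, 619, 540, 562, 437, 623 and 638 CPM. In 5 of the 7 indole mice it was above every vehicle mouse, G5 lay within the vehicle range, and G8 was lower than 6 of the vehicle mice. The means were 480±55.0 and 578±72.5 CPM, and *Acaa1b* was 1.21-fold higher (interval 1.05 to 1.38; log2 fold change 0.27, SE 0.093, unadjusted p = 0.00867). The exact permutation test gave a two-sided p of 0.0210. The unadjusted p stayed below 0.05 in all 26 other analyses, between 0.000942 and 0.0308, with log2 fold changes from 0.22 to 0.33; without both G8 and G11 it was 0.28 (unadjusted p = 0.00226). After adjustment over all genes the lowest p among these analyses was 0.717.

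*Acaa1a* (chr9:119339676-119350299, plus strand), the other peroxisomal thiolase gene of the set, was level. It had 147 to 204 CPM in vehicle (median 171) and 159 to 185 CPM in indole mice (median 166), with means of 173±17.98 and 170±10.3 CPM (log2 fold change -0.02, 95% interval 0.888-fold to 1.10-fold). The coding sequences of the 2 genes were 96.5% identical over 1272 bases of the GENCODE M21 transcripts on GRCm38, with a longest identical run of 327 bases, and 21.6% of the 100-base windows of the *Acaa1a* transcript were also in *Acaa1b*. Only uniquely mapped reads were counted, so reads from the shared windows are uncertain and the 2 counts rest on stretches such as coding bases 433 to 552, in which 14 of 120 bases differ (in capitals).
Acaa1a: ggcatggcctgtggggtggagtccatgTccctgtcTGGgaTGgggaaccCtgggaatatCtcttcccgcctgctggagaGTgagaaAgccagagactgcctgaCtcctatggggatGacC
Acaa1b: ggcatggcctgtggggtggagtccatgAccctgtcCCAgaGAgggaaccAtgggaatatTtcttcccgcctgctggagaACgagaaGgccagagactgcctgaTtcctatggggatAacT
The ratio of *Acaa1b* to *Acaa1a* counts was 2.81±0.438 in vehicle and 3.40±0.434 in indole mice (exact two-sided permutation p = 0.0291), with 4 indole mice above all vehicle mice. Summed over the pair, which a read placed on the wrong copy cannot move, the level was 652±56.4 and 749±75.7 CPM (log2 difference 0.20, exact permutation p = 0.0274), with 6 of 7 indole mice above all vehicle mice. Most of this sum was *Acaa1b* (480 CPM in vehicle mice), so it largely repeats the values of that gene. Reads that were not uniquely mapped are missing from the sum too. Ratio and sum were chosen after the values had been seen. Across mice no relation between the 2 was found (r = 0.004, permutation p = 0.991).

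The remaining peroxisomal genes had intervals that held 0. *Ehhadh*, the bifunctional enzyme of the straight chain route, had 270±26.1 and 278±36.5 CPM (log2 fold change 0.04), and *Hsd17b4*, the bifunctional enzyme for branched chains, 369±24.8 and 383±37.8 CPM (0.05). *Crot*, which passes shortened chains on as carnitine esters, had 418±50.4 and 386±75.7 CPM (-0.12), with 4 indole mice below every vehicle mouse and G5 (481 CPM) and G8 (493 CPM) near the vehicle maximum of 501 CPM. *Pex11a*, a peroxisome division factor, had 35.96±2.89 and 39.6±4.99 CPM (0.14, unadjusted p = 0.109), with 4 indole mice above every vehicle mouse.

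**Figure D3:**
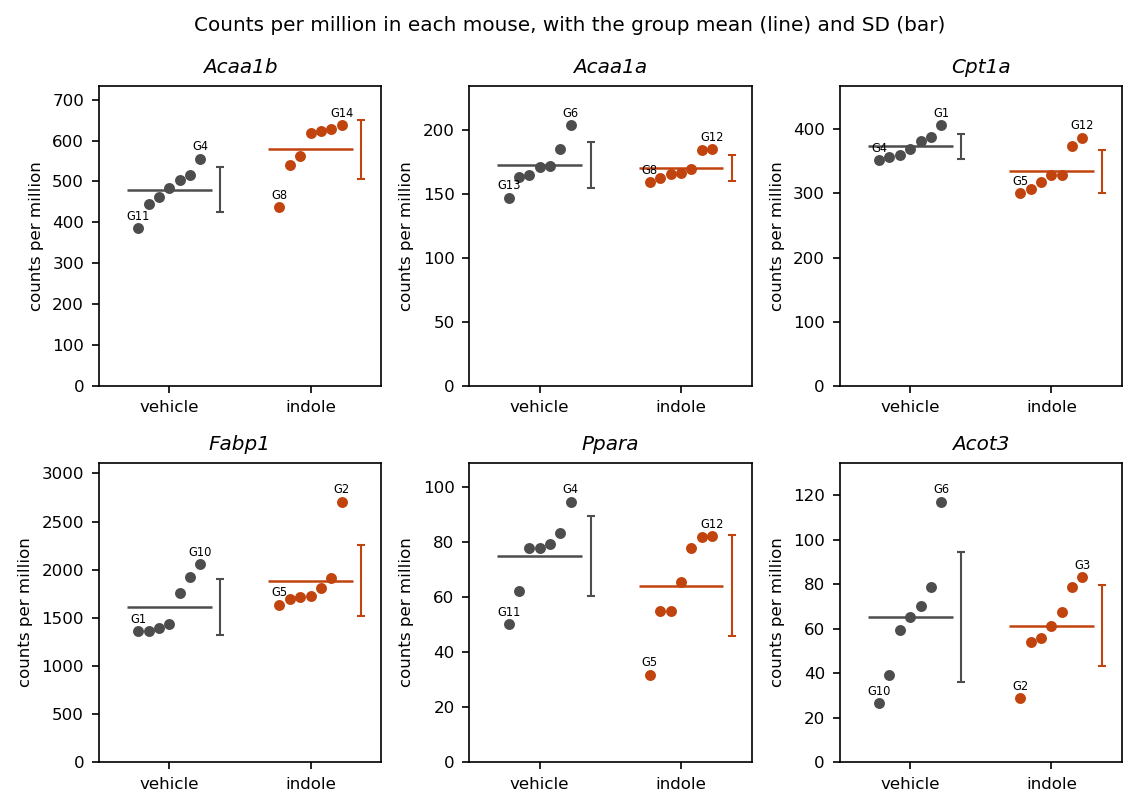
CPM in each of 7 vehicle (grey) and 7 indole (orange) mice for 6 genes, with the group mean (line) and SD (bar) and the lowest and highest mouse named; each vertical axis starts at 0. Most indole mice lie above the vehicle mice for *Acaa1b* and below them for *Cpt1a*, while *Acaa1a* is level, G2 stands above the rest for *Fabp1*, G5 below the rest for *Ppara*, and *Acot3* spreads from 26.8 to 117 CPM.

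The thioesterases, which split acyl-CoA back to free fatty acid, had the highest median biological coefficient of variation (0.207) of the roles with 2 or more genes. *Acot1* of the cytosol had the largest rise in point estimate of the 37, from 6.04 to 14.8 CPM in vehicle (median 9.08) and 5.05 to 18.7 CPM in indole mice (median 12.8). Indole mice held both extremes, G12 above and G8 below every vehicle mouse. Its means of 9.26±2.77 and 12±4.26 CPM gave a log2 fold change of 0.38 (SE 0.24, unadjusted p = 0.125), which became 0.51 (unadjusted p = 0.0113) without G8 and 0.53 (unadjusted p = 0.0276) without G6. Over all omissions of 1 mouse the log2 fold change of *Acot1* ran from 0.245 to 0.53, with unadjusted p from 0.0113 to 0.289. The unadjusted p was below 0.05 in 3 of 26 other analyses. *Acot2*, its mitochondrial counterpart, had 6.72±0.794 and 5.77±1.10 CPM (-0.22, unadjusted p = 0.123). Their coding sequences were 95.6% identical with a longest identical run of 273 bases, and the summed level of the pair was 16.0±3.13 and 17.8±4.41 CPM (log2 difference 0.14, exact permutation p = 0.432), so opposite point estimates within the pair are uncertain. *Acot3*, a peroxisomal thioesterase and the most abundant of the 5 per kilobase, had 26.8 to 117 CPM in vehicle (median 65.3) and 28.9 to 83.2 CPM in indole mice (median 61.4). With means of 65.3±29.2 and 61.5±18.1 CPM its log2 fold change was -0.09 (SE 0.30, unadjusted p = 0.781), and its interval ran from 0.596-fold to 1.49-fold. *Acot4* had 103±21.9 and 104±23.9 CPM, and *Acot8*, also peroxisomal, 13.1±1.32 and 14.2±2.62 CPM (0.11). *Acot1* to *Acot4* are neighbours on chromosome 12, and of their 6 pairs only *Acot3* with *Acot4* passed across mice (r = 0.719, permutation p = 0.00249, adjusted 0.0136; rho = 0.758, adjusted 0.0237; without the 2 farthest mice r = 0.631, adjusted 0.15, and rho = 0.692, adjusted 0.124, no longer passed), and the other 5 pairs among the 4 had r between -0.152 and 0.239.

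The ketone body gene *Bdh1*, which interconverts acetoacetate and 3-hydroxybutyrate, ran from 174 to 224 CPM in vehicle (median 202) and from 166 to 236 CPM in indole mice (median 196). Its means were 203±15.4 and 197±20.7 CPM (log2 fold change -0.04, SE 0.076, unadjusted p = 0.570; interval 0.868-fold to 1.08-fold). Outside the set, *Acat1*, the mitochondrial acetoacetyl-CoA thiolase, was the only 1 of 33 further oxidation and ketogenesis genes tested with an unadjusted p below 0.05. It had 195 to 238 CPM in vehicle and 221 to 268 CPM in indole mice, with means of 217±15.7 and 243±17.4 CPM (log2 fold change 0.16, SE 0.069, unadjusted p = 0.0299, adjusted 0.998).

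*Vnn1*, a pantetheinase of hepatocytes that responds to PPARα ligands, had the largest fall in point estimate but the fewest reads, 3 to 31 a mouse. It had 0.333 to 1.49 CPM in vehicle (median 0.928) and 0.169 to 1.01 CPM in indole mice (median 0.736), with 2 indole mice, G5 and G12, below every vehicle mouse. The means of 1.02±0.455 and 0.629±0.321 CPM gave a log2 fold change of -0.70 (SE 0.38, unadjusted p = 0.0797), with an interval from 0.358-fold to 1.06-fold. The log2 fold change was below 0 in all 26 other analyses; without G6 it was -0.84 (unadjusted p = 0.0325) and without G8 -0.83 (unadjusted p = 0.0474), and in the other 24 its unadjusted p was above 0.05. Over the mice it ran against *Acot1* (r = -0.688, permutation p = 0.00622, adjusted 0.0249; rho = -0.653, adjusted 0.0651), a relation that dropped to r = -0.466 (adjusted 0.414) without the 2 mice farthest from the median of *Vnn1*.

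Seen mouse by mouse, the 12 genes of the mitochondrial cycle and electron transfer tended to be high or low together. In vehicle mouse G6 all 12 were above their mean over the 14 mice (median deviation 0.13 on the log2 scale), as were 11 of 12 in indole mice G5 (0.12) and G14 (0.05). In vehicle mouse G13 (-0.13) and indole mouse G2 (-0.09) 0 of 12 were above it. High and low mice were thus found in both groups. Mice G1 to G4, those with scaling factors of 1.07 to 1.08, had 0 to 4 of the 12 above the mean, whereas G5, with the lowest factor of 0.931, had 11, so these deviations also ran with the library scaling, and its part was not tested. Genes that are high after feeding were lowest in sum in G1 (4113 CPM), G6 (4723 CPM) and G5 (4979 CPM) and highest in G13 (13770 CPM) and G14 (11690 CPM). Of the 12 genes, 3 were above the mean in G1 and 11 in G14. Genes that are high in fasting were lowest in sum in G2 (1590 CPM) and G13 (1768 CPM). They were highest in G12 (3808 CPM), G5 (3232 CPM) and G6 (3230 CPM). The part of the feeding state was not tested either. G2 had the lowest level of the 14 mice for 8 of the 37 genes and G5 the highest for 9.

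**Figure D4:**
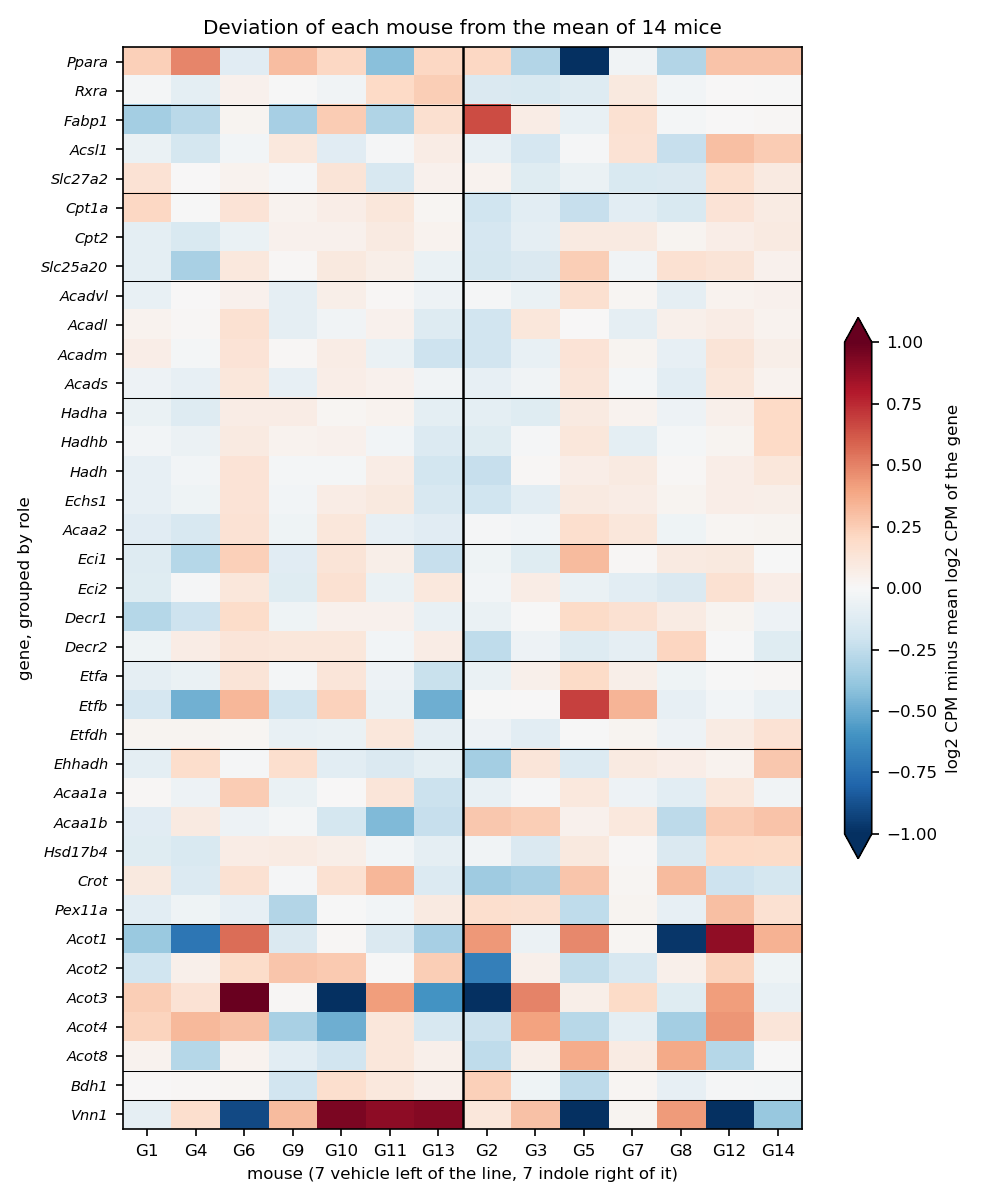
Deviation of log2 CPM in each mouse from the gene's mean over 14 mice, genes grouped by role (horizontal lines) and mice by group (vertical line); colours beyond 1 in either direction are capped. The mitochondrial rows are pale, warm in G6 and G5 and cool in G13 and G2, while *Ppara*, *Acot1*, *Acot3* and *Vnn1* carry the strongest colours in both groups.

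*Ppara* was compared across the 14 mice with each of the other 36 genes. After adjustment over the 36, 1 relation passed, a negative one with *Acot8* (r = -0.804, permutation p = 0.00024, adjusted 0.00864; rho = -0.846, adjusted 0.009). With values centred on their group r was -0.791 (adjusted 0.0356) and rho -0.776 (adjusted 0.074), and without the 2 mice farthest from the median of *Ppara* r was -0.760 (adjusted 0.113). *Acot8* was highest in G8 (17.6 CPM) and G5 (17.5 CPM), where *Ppara* had 55.0 and 31.9 CPM. The median r over the 36 genes was -0.166, with 15 of the 36 above 0. Among the 20 pairs of subunits, neighbours and partners, 5 passed after adjustment by r and 3 of these also by rho: besides those given above, *Cpt2* with *Slc25a20* (r = 0.734, permutation p = 0.00272, adjusted 0.0136; rho = 0.622, adjusted 0.0826; r = 0.501, adjusted 0.396, without the 2 farthest mice). All such values share the scaling of each library.

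**Figure D5:**
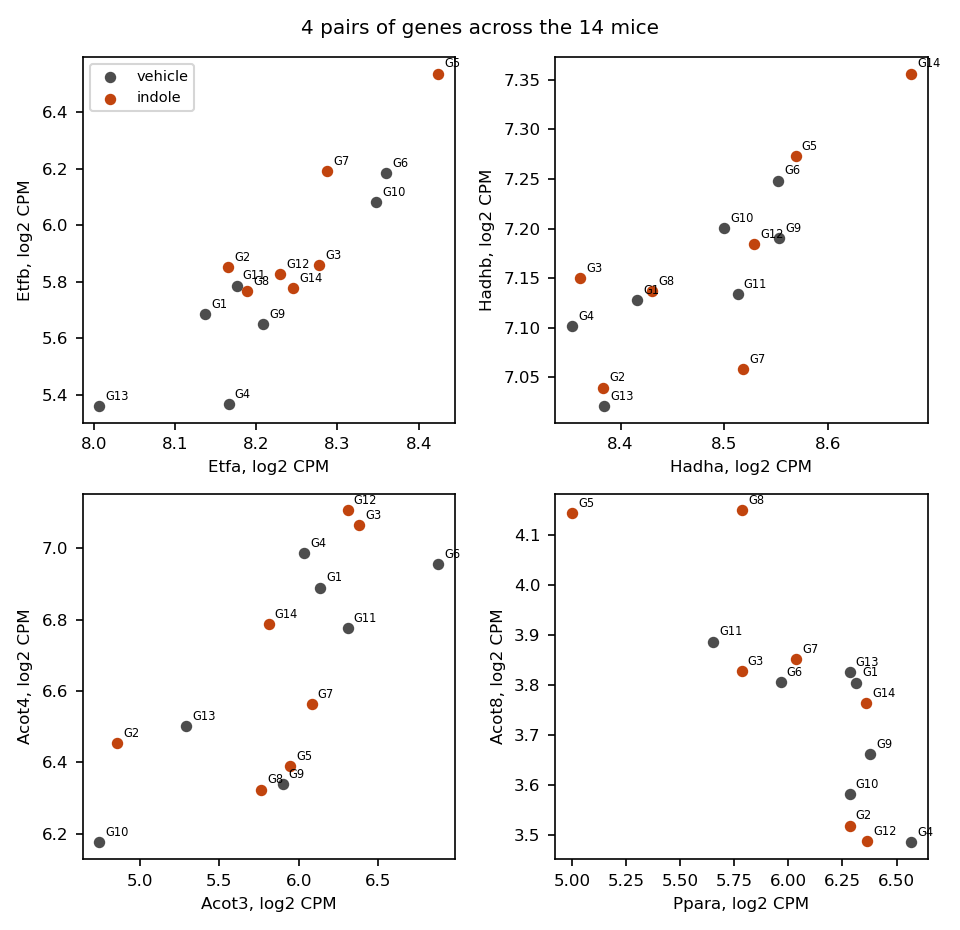
Log2 CPM of 4 pairs of genes in the 14 mice (vehicle grey, indole orange, each point 1 mouse). *Etfa* with *Etfb* (r = 0.891), *Hadha* with *Hadhb* (0.794) and *Acot3* with *Acot4* (0.719) rise together and *Ppara* with *Acot8* (-0.804) run in opposite directions, with mice of both groups along each cloud.

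Further genes of the pathway were counted in lists. Of the 33 other oxidation and ketogenesis genes tested, 17 were higher and 16 lower with a median log2 fold change of 0.003, and of 30 other peroxisome genes 21 were higher and 9 lower (median 0.048) with none at an unadjusted p below 0.05. Of 29 tested genes from a list of 37 other PPARα-responsive genes, 21 were higher and 8 lower, with a median of 0.11, and 4 had an unadjusted p below 0.05, all higher with indole, where 1.53% of all genes tested passed in that direction. The sulfotransferase *Sult2a8* had 274 to 568 CPM in vehicle and 454 to 699 CPM in indole mice (means 393±97.6 and 546±84.5 CPM; log2 fold change 0.48, SE 0.14, unadjusted p = 0.0029). The carboxylesterases *Ces1e* (171±18.9 and 210±28.7 CPM, 0.30, unadjusted p = 0.0033) and *Ces1f* (404±35.3 and 454±35.9 CPM, 0.17, unadjusted p = 0.0316) belong to a cluster of similar genes whose reads may be split, and *Fabp2*, the intestinal type binding protein, had 52.3±8.07 and 60.7±8.12 CPM (0.22, unadjusted p = 0.043). The adjusted p of each was 0.998.

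The most responsive targets of PPARα in mouse liver did not stand among them. *Cyp4a10*, a fatty acid omega-hydroxylase, ran from 137 to 332 CPM in vehicle and from 56.6 to 263 CPM in indole mice (log2 fold change -0.12, unadjusted p = 0.672). Its neighbour *Cyp4a14* ran from 29.8 to 80.1 and from 7.62 to 172 CPM (0.26, unadjusted p = 0.614). *Pdk4*, a kinase that spares glucose in fasting, had 3.72±1.37 and 4.89±1.41 CPM (0.39, unadjusted p = 0.0892), and *Angptl4*, a lipase inhibitor, 99.2±20.5 and 98.4±12.9 CPM (-0.01, unadjusted p = 0.923). *Fgf21*, the fasting hormone of the liver, was below the filter on low counts. The 18 tested coregulators and related receptors were lower in 14 cases and higher in 4 (median -0.064), with none at an unadjusted p below 0.05.

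Lists of the feeding state and the clock were read beside these. Of 11 tested genes that rise in fasting 7 were higher and 4 lower (median 0.008) and none passed the unadjusted threshold. All 9 tested genes that rise after feeding were higher with indole (median 0.27), 1 of them, the lipogenic *Thrsp*, named after its value was seen, with an unadjusted p below 0.05 (1001±247 and 1371±268 CPM, log2 fold change 0.45, unadjusted p = 0.00868, adjusted 0.998). Of 13 clock output genes 5 were higher and 8 lower, and 1 of the lower had an unadjusted p below 0.05. Acute-phase genes were lower in 15 of 15 cases (median -0.22), with summed levels of 14510 to 29150 CPM in vehicle and 13450 to 23750 CPM in indole mice. Of these 15, 2 had an unadjusted p below 0.05, where 2.28% of all genes tested were lower at that threshold. The part of feeding, time of culling or inflammation in the values of *Cpt1a* and *Acaa1b* was not tested.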

How the data were processed

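Liver RNA of 14 mice, 7 vehicle and 7 indole as the labels give them, was sequenced as strand-specific polyA libraries. Per the study's methods and the submitters' processing notes, the authors aligned reads with HISAT2 to GRCm38 (Ensembl 102), kept uniquely mapped reads and deposited raw counts per gene with a gene length; the counting tool is not given in the sources used here. Reads shared by near-identical genes are therefore lost or uncertain. The authors tested the counts with DESeq2.

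Here the counts were filtered with filterByExpr (12653 of 55487 genes kept), scaled by TMM and tested with edgeR 4.0.16 (R 4.3.3) by a robust quasi-likelihood fit of 2 groups with no covariate, with Benjamini-Hochberg adjustment over all genes tested. A log2 fold change is indole minus vehicle, and CPM are TMM-scaled counts in a library of 1000000. The SE is the size of the fold change divided by the root of F. Exact permutation tests (two-sided, 3432 relabellings, smallest p 0.000583) used log2 CPM with a prior count of 2. Correlations used 100000 permutations in NumPy 2.4.6, with ranks from SciPy 1.17.1. Intervals cover 95%. Counts of 15197498 to 21060376 per library gave *Fabp1*, the deepest, 25012 to 51518 reads a mouse and *Vnn1*, the shallowest, 3 to 31. The test was checked on simulated counts.

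The 37 genes and the lists were chosen with earlier results of these data known, so the set is described by counts and medians with no test of its own. Named with full values were genes of the set with an unadjusted p below 0.05, those with the largest rise and fall, and the most abundant of each role per kilobase; from other lists, those with an unadjusted p below 0.05 in the pathway lists and 7 named targets, 2 of which are not reported here. Other lists enter in counts, and single genes named from them were chosen after their values were seen. Alternatives were DESeq2 1.42.0, limma 3.58.1 (voom with sample weights), RLE, upper quartile or no scaling, other count filters, a surrogate variable as covariate (sva 3.50.0), a non-robust fit, and omission of each mouse or of both G8 and G11. Promoters were from RefSeq (GRCm38.p6) and transcripts from GENCODE M21 (GRCm38); protein sequences were not used here.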

Additional observations from a re-analysis of the deposited data

Results flagged for a closer look

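In each group of 7 mice the most extreme value of each of the 37 genes was set against the group's range as in Dixon's test, on log2 CPM. Of 74 combinations 4 exceeded the 95% critical value, where chance alone gives about 3.7. *Ppara* in indole mice had G5 as the lowest, at 31.9 CPM against 55.0 to 82.1 CPM in the others, with a gap of 0.576 of the range. *Hadh* in indole mice had G2 as the lowest, at 332 CPM against 391 to 420 CPM, with a gap of 0.700 of the range. *Acot3* in indole mice had G2 as the lowest, at 28.9 CPM against 54.2 to 83.2 CPM, with a gap of 0.595 of the range. *Fabp1* in indole mice had G2 as the highest, at 2707 CPM against 1638 to 1910 CPM, with a gap of 0.694 of the range. Indole mouse G2 was thus the extreme mouse in 3 of the 4.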

How the results depend on the processing

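The count at an unadjusted p below 0.05 in the set was 2 or 3 in analyses of another tool, scaling or filter and without G8 and G11. It was 5 with 1 surrogate variable (*Crot* and *Decr2* lower and *Pex11a* higher were added), where 519 of all 12653 genes tested passed. It ran from 1 to 4 when 1 mouse was left out: 4 without G6 or G8, 1 without G1, G2, G3, G7 or G11. Over all genes tested 627 of 12788 passed without G6 and 531 of 12761 without G8. The count after adjustment was 0 for the set throughout; over all genes it was 1 under DESeq2 on the same genes, with or without replacement of outlier counts. With no filter on low counts 1336 of 22535 genes tested had an unadjusted p below 0.05, against 482 of 12653 in the main fit. The share rose as well as the number tested, and the cause was not tested. The median log2 fold change of the set ran from -0.0019 (without G14) to 0.050 when 1 mouse was left out, and with no scaling it was 0.0007, with 19 genes higher and 18 lower and a median of all genes of -0.021. Without the 2 mice farthest from the median, 0 relations with *Ppara* and 1 partner pair passed. The looser repeat was in 1 promoter.

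Signs turned for 11 genes, whose log2 fold changes in the main fit lay between -0.09 (*Acot3*) and 0.04 (*Ehhadh*). With no scaling the turned values were *Acadl* -0.025, *Acadm* -0.028, *Acads* -0.014, *Echs1* -0.024, *Etfdh* -0.017 and *Acot4* -0.017. With 1 surrogate variable they were *Acadl* -0.012, *Acadm* -0.022, *Acads* -0.0041 and *Echs1* -0.028. With no filter they were *Acadl* -0.0016 and *Acadm* -0.00056, by limma-voom *Acadl* -0.0046, and without G8 and G11 *Acaa1a* 0.015. Leaving out 1 mouse also turned signs, with ranges of -0.019 to 0.033 for *Acadl*, -0.030 to 0.034 for *Acadm*, -0.0082 to 0.034 for *Acads*, -0.0024 to 0.051 for *Hadhb*, -0.020 to 0.038 for *Echs1*, -0.041 to 0.011 for *Eci2*, -0.0091 to 0.033 for *Etfdh*, -0.0038 to 0.093 for *Ehhadh*, -0.053 to 0.028 for *Acaa1a*, -0.22 to 0.12 for *Acot3* and -0.067 to 0.069 for *Acot4*. The cause was not tested. The other 26 genes kept their direction in all 26 analyses. Of 962 values of single genes 881 kept their direction and side of the threshold, 9 lost and 16 gained an unadjusted p below 0.05, and 56 turned sign. No paired analysis was possible because the groups share no replicate numbers.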
